A study of Mus musculus with 8 samples.

Results

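Met, Fgfr1, Fgfr2, Egfr, Erbb2, Erbb3 and Erbb4 are receptor tyrosine kinases, Areg and Egf are ligands of the EGF receptor, and Spry2 is an intracellular inhibitor of receptor tyrosine kinase signalling. These 10 genes were taken by name, and every non-control probe whose systematic name was a RefSeq transcript of one of them was used. They were read by 15 probes, all of which passed the filter on dim probes, and they made up 10 of the 23341 genes or unnamed transcripts and 15 of the 31665 probes that were tested. Of the 10 genes, 7 were read by 1 probe each. Their expression was compared between ureteric bud cells of 4 wild-type (WT) samples and of 4 samples in which Dot1 was deleted in Hoxb7-positive cells (KO). All samples came from kidneys of C57BL/6 mice at postnatal day 0, and GFP-positive cells were collected by flow sorting before RNA was extracted. Hoxb7 is known to be active in the ureteric bud and the collecting duct, so the deletion targets those cells and not the rest of the kidney. The labels name no animals or litters, so a p-value here reflects only how far these samples spread, which may be technical. The RNA of WT replicate 3 served as the Cy3 reference on all 8 arrays, its own array therefore carried that RNA in both dyes, and no dye was swapped.

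Receptor tyrosine kinases are membrane proteins that bind a secreted or shed ligand outside the cell, pair up and phosphorylate tyrosines inside it, which starts the RAS-ERK and PI3K-AKT cascades. The ureteric bud grows and branches under such signals: GDNF from the surrounding mesenchyme acts through Ret, FGFs act through Fgfr2, and HGF and EGF family ligands act through Met and Egfr. Sprouty proteins are made in response to the same signals and dampen them.

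Dot1l, the targeted gene, averaged -0.02 (log2 ratio to the reference, SD 0.08, n = 4) on the WT arrays and 0.16 (SD 0.19, n = 4) on the KO arrays (limma adjusted p = 0.342). Without KO 2 and KO 3 it was higher in the libraries labelled KO, by 0.34 (limma adjusted p = 0.0299). The fit without these arrays called 23.6% of all genes, 13.5% higher in KO. The single probe of Dot1l may lie outside the deleted part, so the labels could not be checked with it. Among the KO arrays, 2 stood apart, which bears on every value below. On the first principal component of all log ratios, KO 2 (-19.89) lay among the WT arrays (-25.72 to -18.40), whereas KO 1, KO 3 and KO 4 lay at 24.16 to 50.21. KO 3 was the brightest array, with 95.2% of its spots above background in Cy5 against 52.4% to 68.9% on the others, and 7665 of its 62976 spots were marked by the scanner software and left out, against 175 to 216 elsewhere. All arrays shared 1 slide, with each genotype in a row of its own, so that the effect of genotype and that of the slide's rows cannot be told apart. All 18 marker genes of ureteric bud and collecting duct were above background on all 8 arrays, as were those of most other kidney cell types listed. In KO the 18 bud and duct markers had a median log2 difference of -0.01, from -0.82 for Wnt11 to 0.79 for Krt18. Of these, 10 were below 0 (54.1% of all genes). At an unadjusted p under 0.05, 5 were lower and 1 higher (13.6% and 10.4% of all genes). Of the 17 with a value on every array, 2 were lower and 1 higher without overlap (7.64% and 3.85% of all genes). Hoxb7 had -0.71 ± 0.08 (SE; limma adjusted p = 0.057) and Pax2 -0.40 ± 0.09 (SE; limma adjusted p = 0.112, KO 3 missing); Wnt11 and Krt18 were named after their values were seen.

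None of the 10 genes passed the test between KO and WT at an adjusted p of 0.05 (limma, Benjamini-Hochberg adjustment over all 23341), where 0.00857% of all genes passed. At an unadjusted p under 0.05 there were 3 of 10, Met and Erbb2 with negative and Egfr with positive differences, beside 24.1% of all genes. The log2 difference was below 0 for 7 of the 10, beside 54.1% of all genes, and the median over the 10 was -0.12, beside -0.02 over all genes. The values of KO and WT did not overlap for 1 of the 9 genes with a value on every array, beside 11.5% of all genes. This was Erbb2, lower in KO, and none was higher without overlap, beside 3.85% of all genes.

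**Figure D1:**
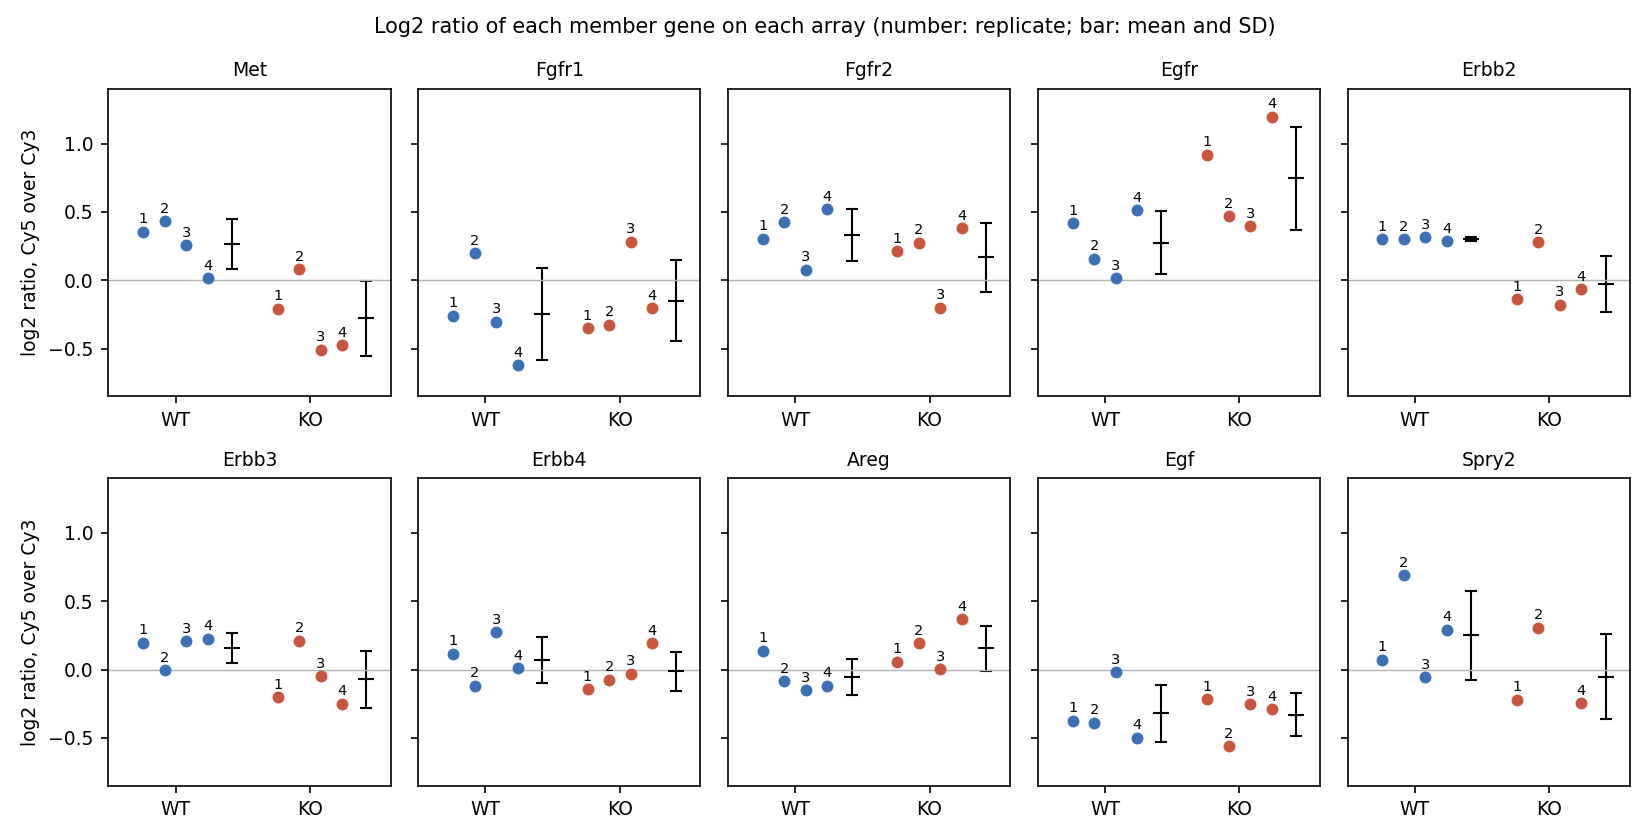
Each panel plots the log2 ratio of Cy5 over Cy3 for 1 gene on each of the 4 WT and 4 KO arrays. The numbers are replicate numbers and the bars show the mean and SD of each group. For Met, Erbb2 and Erbb3 the point of KO 2 is the highest of the KO points, and for Egfr the KO points spread from 0.40 to 1.20.

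Met encodes the receptor of hepatocyte growth factor. Its log2 ratio was 0.36, 0.43, 0.26 and 0.01 on WT 1 to WT 4 and -0.21, 0.08, -0.51 and -0.48 on KO 1 to KO 4. KO 1, KO 3 and KO 4 lay below every WT array, and KO 2 lay above WT 4 and below the other WT arrays. The log2 difference was -0.54 ± 0.15 (SE; limma adjusted p = 0.114), or 1.46-fold lower, with a 95% interval of -0.88 to -0.21. A difference of at least that size in either direction was measured for 7.39% of all genes. The probe was printed in 10 spots on each array, and the SD between its spots was 0.03 to 0.10, below the SD between the arrays of a group (0.18 in WT and 0.28 in KO). On KO 3 and KO 4, 3 and 2 of those spots were marked by the scanner software and left out.

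The ERBB receptors differed in their patterns. Erbb2 encodes the ERBB receptor that has no ligand of its own and serves as the partner of the others. Its log2 ratio was 0.30, 0.30, 0.32 and 0.29 on WT 1 to WT 4, and -0.14, 0.28, -0.18 and -0.07 on KO 1 to KO 4. The WT arrays lay close together and every KO array lay below them, KO 2 only just. The difference in Erbb2 was -0.33 ± 0.11 (SE; limma adjusted p = 0.131), or 1.26-fold lower, with a 95% interval of -0.57 to -0.09. Lower values without overlap were found for 7.64% of all genes. This probe too had 10 spots per array, with an SD between spots of 0.04 to 0.06.

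Erbb3 encodes a neuregulin receptor whose kinase is weak and which signals through partners such as ERBB2. Its log2 ratio was 0.20, -0.00, 0.21 and 0.23 on the WT arrays and -0.20, 0.21, -0.05 and -0.25 on the KO arrays, in replicate order. The groups overlapped through both WT 2, which was the lowest WT array, and KO 2, which was the highest KO array. The probe of Erbb3 had 1 spot per array and was above background on 4 WT and 4 KO arrays. It was dim, with a Cy5 signal of 139 to 218, except 1273 on KO 3. For Erbb3 the difference was -0.23 ± 0.12 (SE; limma adjusted p = 0.257), with a 95% interval of -0.49 to 0.03. The difference was -0.52 with no offset in the background correction and -0.62 with the ratio of the scanner software. Set against the median of all genes it was below 0 in 20 of 21 alternatives and 0.06 with Cy5 alone.

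Erbb4 encodes the other neuregulin receptor, which has an active kinase. It was dim: its Cy5 signal was above background on 2 WT and 2 KO arrays. Its log2 ratio ran from -0.12 to 0.27 in WT and from -0.14 to 0.19 in KO, and the groups overlapped over most of their range. The difference in Erbb4 was -0.08 ± 0.11 (SE; limma adjusted p = 0.675), with a 95% interval of -0.33 to 0.17.

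Egfr encodes the receptor of EGF, TGF alpha and amphiregulin, and its probes did not give the same pattern. The brightest probe, A_52_P106259, assigned to the transcript NM_207655 and used for the gene, read 0.42, 0.16, 0.02 and 0.51 on WT 1 to WT 4 and 0.92, 0.47, 0.40 and 1.20 on KO 1 to KO 4. KO 1 and KO 4 lay above every WT array, and KO 2 and KO 3 lay within the WT range. The log2 difference was 0.47 ± 0.19 (SE; limma adjusted p = 0.176), with a 95% interval of 0.04 to 0.89. The 2 other probes, both assigned to the transcript NM_007912, had log2 differences of 0.02 ± 0.11 (A_55_P1956862; SE, limma adjusted p = 0.943) and -0.06 ± 0.11 (A_55_P1956863; SE, limma adjusted p = 0.798). Their KO arrays read -0.12 to 0.22 and 0.21 to 0.58, within or close to their WT ranges of -0.09 to 0.20 and 0.17 to 0.53. These 2 probes had 1 spot per array and were dimmer. On WT 4 their Cy5 signal was 103 and 221.5 against 581.5 for A_52_P106259, and on KO 4 it was 123 and 298 against 1080. A_55_P1956862 was above background on 3 WT and 4 KO arrays. The part of this dimness in the disagreement between probes was not tested. With the mean over all 3 probes, the difference for Egfr was 0.14 (limma adjusted p = 0.50).

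The difference between probes of a gene was itself compared between groups, for the 7 pairs of probes of Egfr, Fgfr1 and Fgfr2, a comparison chosen after the values were seen. A_52_P106259 minus A_55_P1956863 was -0.34 to -0.01 on the WT arrays and 0.13 to 0.61 on the KO arrays, without overlap (difference 0.53, p = 0.0286 in a 2-sided exact permutation test, which cannot give a smaller p with 4 arrays a group, and 0.20 after Benjamini-Hochberg adjustment over the 7 pairs). A_52_P106259 minus A_55_P1956862 differed by 0.45 (exact permutation p = 0.0857, adjusted 0.20), and the 2 probes of NM_007912 differed from each other by 0.07 (exact permutation p = 0.486, adjusted 0.486). No pair passed after adjustment.

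**Figure D2:**
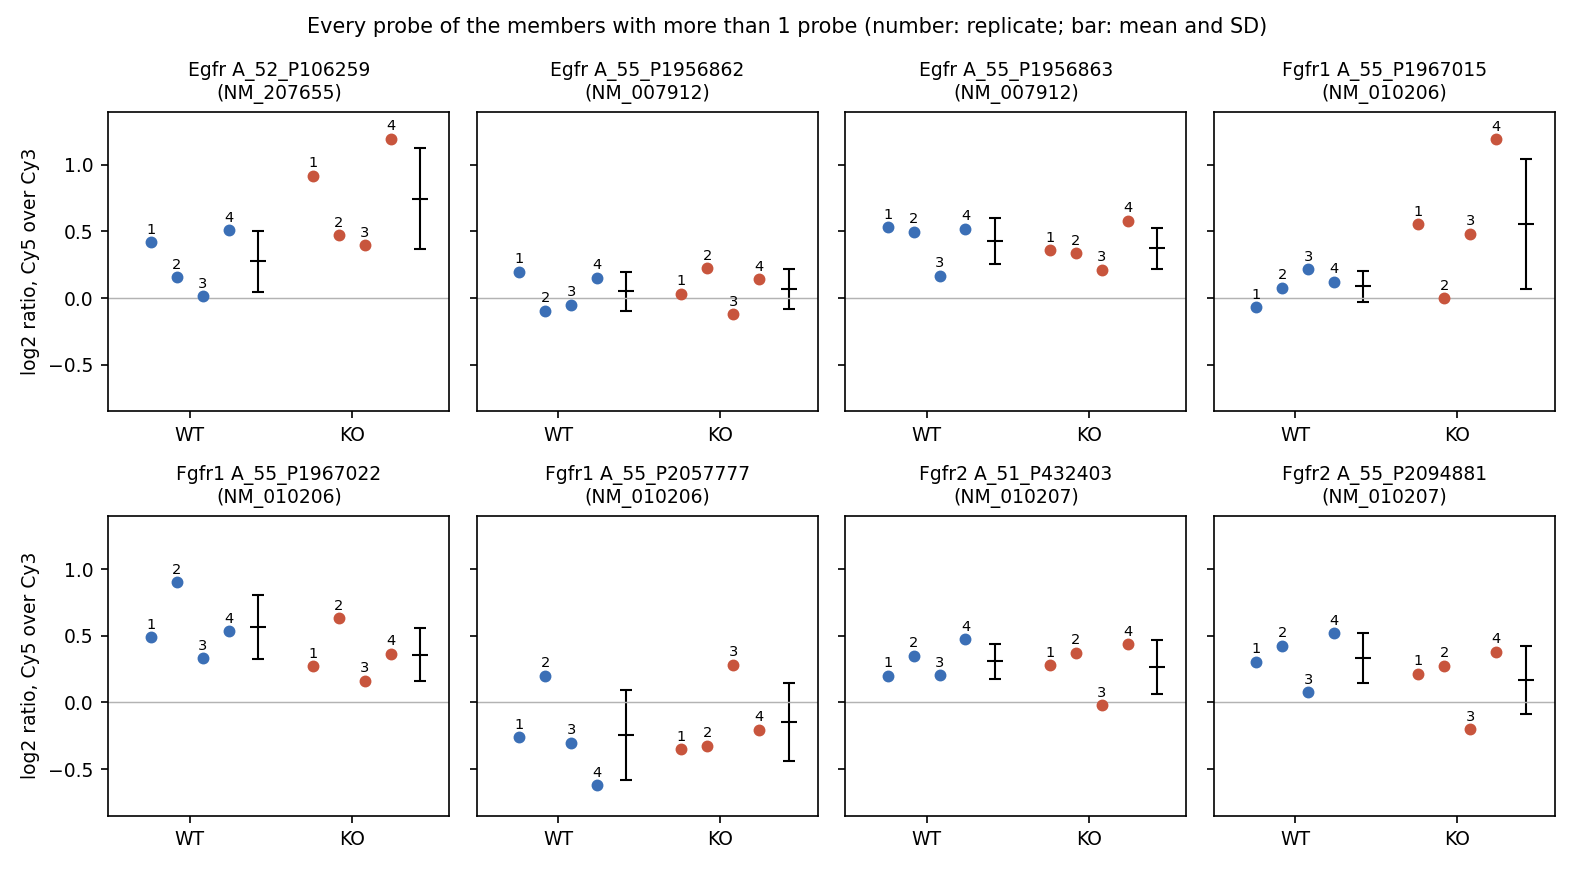
Each panel plots the log2 ratio of Cy5 over Cy3 for 1 probe of Egfr, Fgfr1 or Fgfr2 on each array, with replicate numbers beside the points and bars for the mean and SD of each group. The Egfr probe of NM_207655 and the Fgfr1 probe A_55_P1967015 reach 1.20 and 1.19 on KO 4, whereas the other probes of these genes stay at or below 0.63 on the KO arrays.

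Fgfr1 and Fgfr2 encode receptors of fibroblast growth factors, Fgfr2 being the one best known in bud epithelium. The 3 probes of Fgfr1 share the transcript NM_010206 and ranged in log2 difference from -0.20 to 0.47. The brightest, A_55_P2057777, read -0.26, 0.20, -0.30 and -0.62 on the WT arrays and -0.35, -0.32, 0.28 and -0.20 on the KO arrays. Both groups spread widely, and only KO 3 lay above every WT array. Its log2 difference was 0.10 ± 0.19 (SE; limma adjusted p = 0.786), with a 95% interval of -0.33 to 0.53, and its sign turned in 4 of 21 alternatives, arrays left out included.

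A_55_P1967015 of Fgfr1 read -0.07, 0.08, 0.22 and 0.12 on the WT arrays and 0.55, -0.00, 0.48 and 1.19 on the KO arrays. KO 1, KO 3 and KO 4 lay above every WT array and KO 2 lay among them. The difference of this probe was 0.47 ± 0.21 (SE; limma adjusted p = 0.212 over 31665 probes, of which 0.00632% passed). A_55_P1967022 ran from 0.33 to 0.90 in WT and from 0.16 to 0.63 in KO (difference -0.20 ± 0.14, SE; limma adjusted p = 0.402). The difference between these last probes changed by 0.67 from WT to KO (exact permutation p = 0.114, adjusted 0.20 over the 7 pairs), which did not pass.

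Both probes of Fgfr2, of the transcript NM_010207, gave small differences. The brighter, A_55_P2094881, read 0.30, 0.42, 0.08 and 0.52 in WT and 0.21, 0.27, -0.20 and 0.38 in KO (difference -0.16 ± 0.14, SE; limma adjusted p = 0.511). The other, A_51_P432403, with 10 spots per array, ran from 0.20 to 0.47 in WT and from -0.02 to 0.44 in KO (difference -0.04 ± 0.12, SE; limma adjusted p = 0.861). KO 3 was the lowest array on both probes, and the other KO arrays lay inside the WT range. The 95% interval for Fgfr2, -0.49 to 0.16, leaves room for a difference in either direction.

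Areg encodes amphiregulin, which is made as a membrane protein and released by cleavage. Its Cy5 signal was above background on 1 WT and 4 KO arrays, so that the WT values are close to a floor and the difference is not well bounded. Areg thus met the filter of at least 4 arrays through the KO arrays. These had 59.1% to 95.2% of their spots above background in Cy5, against 52.4% to 56.2% on the WT arrays. The part of this in the detection of Areg was not tested. The log2 ratio was 0.14, -0.08, -0.15 and -0.12 on the WT arrays and 0.06, 0.19, 0.00 and 0.37 on the KO arrays. All KO arrays lay above the WT mean, and WT 1 overlapped with KO 1 and KO 3. The difference in Areg was 0.21 ± 0.11 (SE; limma adjusted p = 0.267), and it was 0.68 with no offset in the background correction and 1.31 with the ratio of the scanner software (limma adjusted p of 0.164 to 0.523 over its alternatives).

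Egf encodes the founding ligand of the family, which in the kidney is known from the thick ascending limb and the distal tubule. It read -0.38, -0.39, -0.02 and -0.50 on WT 1 to WT 4 and -0.22, -0.56, -0.25 and -0.29 on KO 1 to KO 4. WT 3, the reference RNA against itself, was higher than all 7 other arrays, and the remaining arrays of the groups overlapped. The difference in Egf was -0.01 ± 0.12 (SE; limma adjusted p = 0.970), with a 95% interval of -0.29 to 0.27. The 11 markers of loop of Henle and distal tubule, a list that holds Egf, had median log2 ratios of -1.37, -1.38, -0.02 and -1.62 on the WT arrays and -1.0, -1.07, -0.63 and -0.44 on the KO arrays. All 11 were above background on every array, and the summed Cy5 signal of the list ran from 102263 to 287364 in WT and from 123629 to 193023 in KO. The part of those cells in the Egf values was not tested. In bulk samples, fewer cells of a type and less RNA per cell cannot be told apart.

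Spry2, the inhibitor, read 0.07, 0.69, -0.06 and 0.29 on the WT arrays and -0.22, 0.31 and -0.25 on KO 1, KO 2 and KO 4. The spot of KO 3 was marked by the scanner software and left out, so the fit used 3 KO values. KO 1 and KO 4 lay below every WT array, and KO 2 lay within the WT range. The difference in Spry2 was -0.30 ± 0.20 (SE; limma adjusted p = 0.392), with a 95% interval of -0.77 to 0.16.

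**Figure D3:**
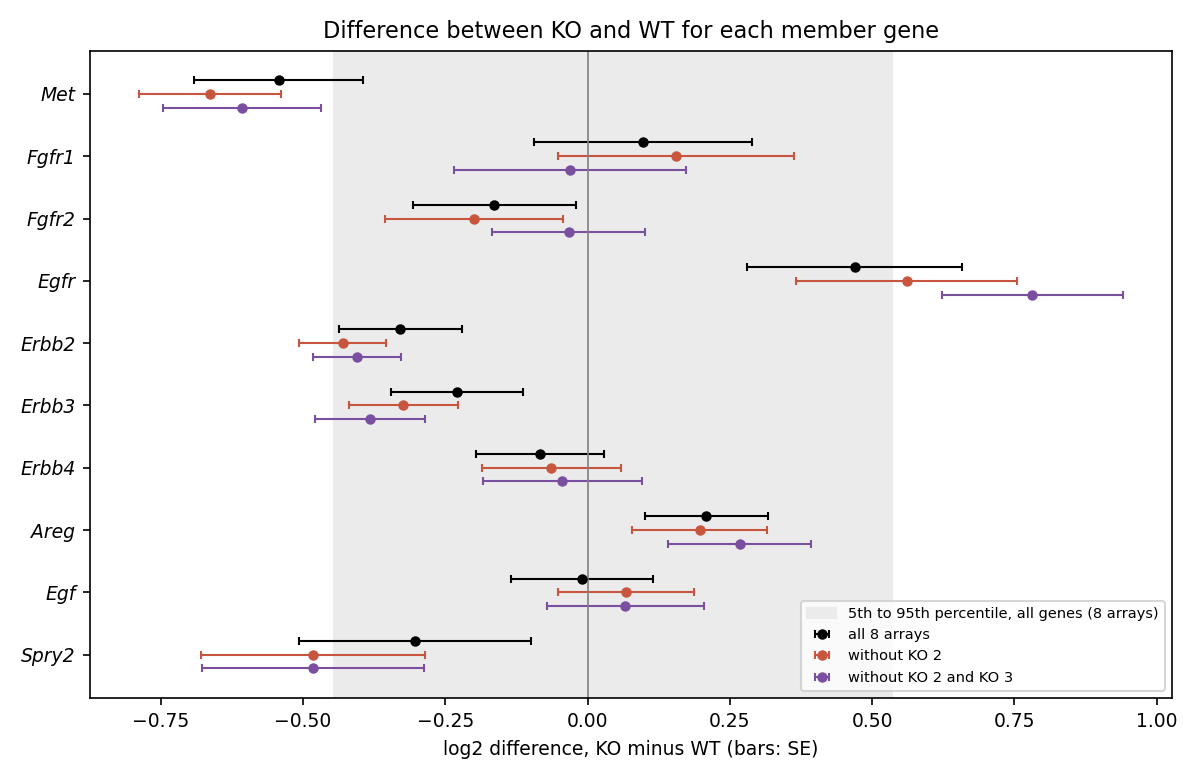
Points are the log2 difference, KO minus WT, of each gene with all 8 arrays, without KO 2 and without KO 2 and KO 3, and bars are SE. The grey band runs from the 5th to the 95th percentile of all genes with 8 arrays, -0.45 to 0.53. Met lies outside the band in each of the fits, at -0.54 with all arrays. Egfr, read here by its brightest probe, lies at 0.78 without KO 2 and KO 3, where its other probes had 0.03 and 0.04.

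Which of these genes passed depended on which arrays were used and how they were weighted. KO 2 was set apart because it lay among the WT arrays in these same data. The adjusted p-values of the fits without KO 2 therefore depend on that choice. With array weights, which keep all 8 arrays, Met, Egfr and Erbb2 passed, beside 4541 of the 23341 genes tested. The weights were estimated from how far each array departed from its group in these same data. The adjusted p-values of the weighted fit therefore depend on the data in a similar way. Without KO 2, 3 of the 10 passed, Met with a log2 difference of -0.66 (limma adjusted p = 0.0084), Erbb2 with -0.43 (0.0069) and Erbb3 with -0.32 (0.0433). That fit called 21.2% of all genes, 11.2% lower in KO. Egfr had 0.56 (0.0721) there and Spry2 -0.48 (0.124). Without KO 2 and KO 3, 4 of 10 passed, Met with -0.61 (0.0189), Erbb2 with -0.40 (0.0098), Erbb3 with -0.38 (0.0271) and Egfr with 0.78 (0.0124), beside 23.6% of all genes, 10.1% lower and 13.5% higher. Egfr passed there on its brightest probe, A_52_P106259, only. Its other probes had 0.03 (A_55_P1956862) and 0.04 (A_55_P1956863) without these arrays (limma adjusted p = 0.852 and 0.850 over all probes). Without KO 3 alone none of the 10 passed, beside 0.0343% of all genes. In that fit 4 of the 10 had an unadjusted p under 0.05, beside 4942 of 23341 genes. Over all the alternatives the adjusted p ran from 0.0084 to 0.299 for Met, from 0.0069 to 0.306 for Erbb2, from 0.0271 to 0.816 for Erbb3 and from 0.0124 to 0.644 for Egfr. In the fit of probes, A_55_P1967015 of Fgfr1 also passed without KO 2, with 0.66 (limma adjusted p = 0.0249), where the fit of genes called 21.2% of all genes. The other probes of Fgfr1 had 0.16 (A_55_P2057777) and -0.30 (A_55_P1967022) in that fit of probes (limma adjusted p = 0.635 and 0.151). At least 3 KO arrays below every WT array, as for Met, Erbb2 and Erbb3, was found for 23.6% of all genes. For Met and Erbb3 it was 3 arrays without KO 2, as for 11.7% of all genes, and exactly 2 KO arrays lay above every WT array, as for Egfr, for 14.3%.

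Cy3 held the same RNA on every array, so its signal alone was compared between the KO and the WT arrays. None of the 10 genes passed there (limma adjusted p of 0.701 to 0.877), and none had an unadjusted p under 0.05, beside 0% of all genes by adjusted and 4.38% by unadjusted p. The KO and WT arrays overlapped in Cy3 for each of the 9 genes with all values, and did not for 5.17% of all genes. The Cy3 differences ran from -0.19 for Egfr to 0.15 for Erbb3, and for Met and Erbb2 they were -0.11 ± 0.11 (SE) and -0.02 ± 0.06 (SE). KO 3 stood apart in this channel, where its value departed from the mean of the other arrays by -0.76 for Fgfr2, -0.72 for Egfr, -0.52 for Egf, -0.48 for Met, 0.50 for Erbb3 and -0.18 to -0.04 for the other members with a value. Without KO 3 the Cy3 differences of the 10 genes lay between -0.06 and 0.08. On the array of WT 3, where both dyes held the same RNA, the 15 probes read from -0.30 to 0.33, so the ratio of a probe on a single array includes its dye effect.

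**Figure D4:**
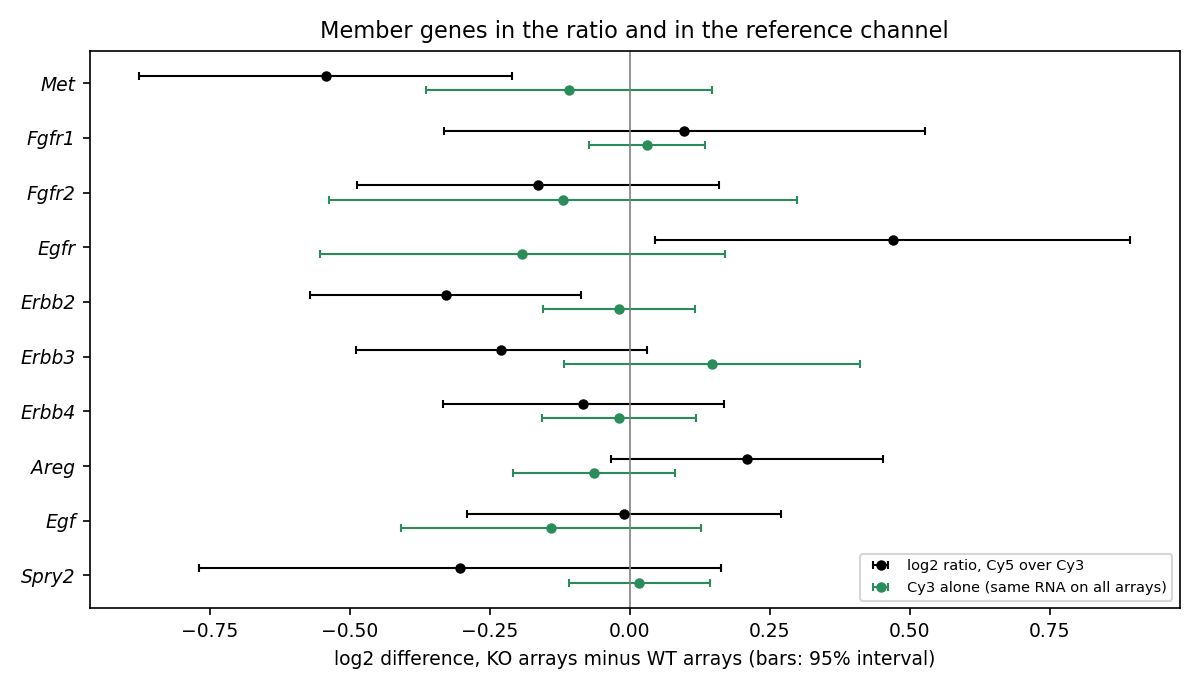
Points are the log2 difference between KO and WT arrays for each gene, in the ratio of Cy5 to Cy3 and in the Cy3 reference channel alone, and bars are 95% intervals. In the reference channel every interval includes 0, that of Egfr running from -0.55 to 0.17. In the ratio those of Met, Erbb2 and Egfr do not include 0. The intervals are not adjusted, and none of these genes passed the adjusted test in the ratio. There 24.1% of all genes had an unadjusted p under 0.05 (limma).

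The other genes of the pathway were taken from lists by role, which were chosen with earlier results of these data known. With all arrays, none of their genes passed the adjusted test. Among 34 receptor tyrosine kinases and coreceptors, the 7 receptors above included, 7 had lower and 6 had higher values in KO at an unadjusted p under 0.05, beside 13.6% and 10.4% of all genes, and the median log2 difference was -0.02. Ror2, a WNT5A receptor, ran from -0.70 to -0.30 in WT and from -1.51 to -0.97 in KO, without overlap, KO 2 included (difference -0.79 ± 0.14, SE; limma adjusted p = 0.10). Kit, the stem cell factor receptor, ran from 0.03 to 0.18 in WT and from 0.36 to 0.96 in KO, also without overlap (0.60 ± 0.12, SE; limma adjusted p = 0.105). Ptk7, a pseudokinase of planar polarity, had a difference of -0.60 ± 0.15 (SE; limma adjusted p = 0.112) with KO 3 missing.

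Of 11 EGF family ligands 7 were tested, with a median of 0.14 and 1 at an unadjusted p under 0.05 (24.1% of all genes). This median was -0.01 with the filter on all 8 arrays, 0.35 with no offset and 0.41 with the scanner ratio. The 1 gene was Nrg1, neuregulin 1, a ligand of ERBB3 and ERBB4, with 0.39 ± 0.16 (SE; limma adjusted p = 0.186). Over 18 tested ligands of the FGF, HGF, GDNF, VEGF, PDGF and KIT receptors the median was -0.08, with 2 lower and 3 higher at an unadjusted p under 0.05 (13.6% and 10.4% of all genes). Fgf18 had 0.79 ± 0.22 (SE; limma adjusted p = 0.115) and its other probe 0.69, Fgf9 had 0.42 ± 0.15 (SE; limma adjusted p = 0.154), and Fgf2 had 0.22 ± 0.09 (SE; limma adjusted p = 0.178). Among 13 genes of ligand shedding and HGF activation the median was 0.03, with 1 lower and 4 higher (13.6% and 10.4% of all genes). Rhbdf1, which encodes an inactive rhomboid that regulates the shedding protease ADAM17, ran from -0.39 to -0.14 in WT and from -0.08 to 0.32 in KO (0.45 ± 0.11, SE; limma adjusted p = 0.112). Hgfac and Hpn, which encode proteases that activate HGF, had 0.52 (KO 3 missing) and 0.36.

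Among 20 tested feedback inhibitors, Spry2 included, the median was -0.17, with 4 lower and 1 higher at an unadjusted p under 0.05 (13.6% and 10.4% of all genes). The median was -0.083 without KO 3, -0.096 without WT 2 and -0.056 without KO 2 and KO 3. The higher one was Errfi1, which encodes a protein (MIG6) that binds EGFR and ERBB2 and inhibits their kinases. It read -0.31, -0.35, -0.29 and -0.53 on the WT arrays and 0.37, -0.19, 0.59 and 0.94 on the KO arrays, without overlap and with KO 2 closest to WT. Its difference was 0.80 ± 0.21 (SE; limma adjusted p = 0.112), and without KO 2 it was 1.01 (0.0030). Spred2, which binds RAF, and Dusp4, an ERK phosphatase, had differences of -0.55 ± 0.16 (SE; limma adjusted p = 0.120) and -0.58 ± 0.18 (SE; limma adjusted p = 0.122).

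Below the receptors, medians were close to that of all genes. Over 25 adaptors and RAS-ERK kinases the median was 0.01, with 2 lower and 4 higher at an unadjusted p under 0.05 (13.6% and 10.4% of all genes). Frs2, the docking protein of FGF receptors, had 0.60 ± 0.15 without overlap, and Map2k2, a kinase of ERK, had -0.39 ± 0.11 without overlap and -0.30 on its other probe (SE; limma adjusted p = 0.112 and 0.121). Hras, a RAS protein, had -0.38 ± 0.14 (SE; limma adjusted p = 0.145). Over 17 genes of the PI3K-AKT arm the median was -0.03, with 3 lower and 3 higher (13.6% and 10.4% of all genes). Inppl1, a lipid phosphatase, had 0.54, Tsc1, an inhibitor of mTOR signalling, 0.65, and Pik3r2, a regulatory subunit of PI3K, -0.48.

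The 18 tested target genes of ERK signalling had a median of -0.02, with 2 lower and 0 higher at an unadjusted p under 0.05 in the limma fit (13.6% and 10.4% of all genes). These were Etv4, a transcription factor of bud tips, with -0.50 ± 0.18 (SE; limma adjusted p = 0.152; -0.48 on its other probe), and Ier2, an immediate early gene, with -0.45 ± 0.17 (SE; limma adjusted p = 0.16). Etv5, a close relative of Etv4, had -0.39 ± 0.18 (SE; limma adjusted p = 0.209). Etv4 and Etv5 were lowest on KO 4, at -0.72 and -0.77. Without KO 2 the adjusted test called 13 of the 34 receptors (8 lower), 4 of the 18 ligands, 2 of the 13 shedding genes, 4 of the 20 inhibitors, 6 of the 25 adaptors and kinases and 4 of the 17 PI3K-AKT genes, and 0 each of the EGF family ligands and ERK targets, beside 21.2% of all genes.

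**Figure D5:**
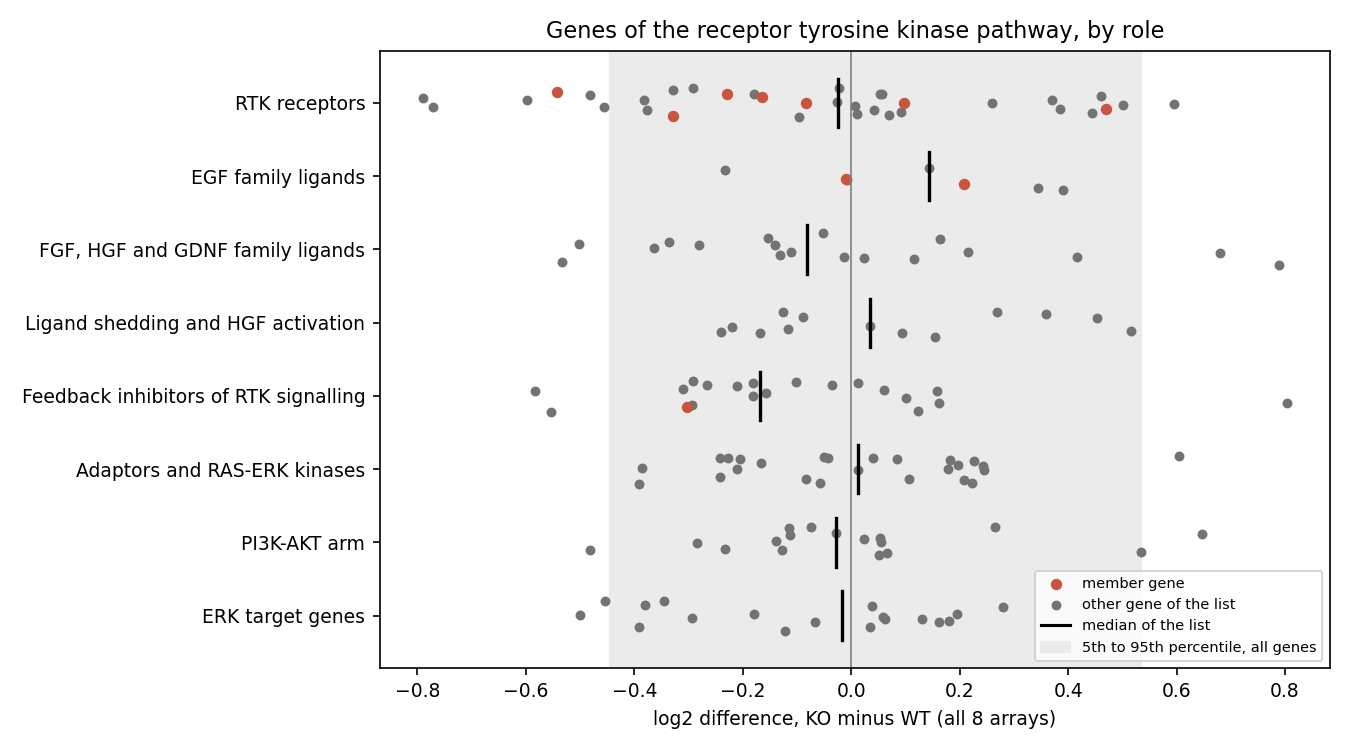
Each point is the log2 difference, KO minus WT with all 8 arrays, of 1 gene of the pathway, arranged by role, with the genes described in detail in red and the median of each list as a black line. The grey band spans -0.45 to 0.53, the 5th to 95th percentile of all genes, and the list medians lie between -0.17 and 0.14.

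Markers of other kidney cells were present in the sorted samples and varied between arrays. Stroma and smooth muscle markers had median log2 ratios of 1.13, 1.0, 0.03 and 0.98 on the WT arrays and -0.09, 1.29, 0.25 and 0.63 on the KO arrays. This list had 10 of 11 tested genes with a difference below 0, beside 54.1% of all genes. Its summed Cy5 signal was 22096 to 51029.8 in WT and 18490.7 to 51899.1 in KO. Nephron progenitor markers had medians of 1.08, 1.48, 0.05 and 0.27 in WT and -0.52, 0.82, 0.03 and 0.49 in KO, with 9 of 10 below 0 and summed signals of 30583.6 to 63913.9 and 29033.7 to 44325.6. The exception was Eya1, which had the largest difference of that list, 1.11 ± 0.34 (SE; limma adjusted p = 0.122). Proximal tubule markers had medians of 1.10, 0.25, -0.02 and -0.28 in WT and -1.37, 0.01, 0.82 and 0.26 in KO, with 9 of 11 below 0 and summed signals of 38574.1 to 114935 and 18880.8 to 115352. KO 1 had the lowest median of all arrays in each of these lists, and KO 2 was at least as high as 3 of the other arrays in each of them. Macrophage and leukocyte markers were below 0 for 9 of 11 genes, from -1.45 for S100a8 to 1.15 for Itgam, which was named after its value was seen. Their summed signal was 18671.7 to 27318.4 in WT and 29736.8, 17489.1, 21541.3 and 85346.6 on KO 1 to KO 4, highest on KO 4. Podocyte markers were below 0 for 7 of 8, endothelial markers for 3 of 10 and erythroid markers for 2 of 5, beside 54.1% of all genes. At an unadjusted p under 0.05 (limma) there were 5 macrophage and leukocyte, 2 nephron progenitor and 2 podocyte markers, beside 24.1% of all genes. For stroma and smooth muscle, proximal tubule, endothelium and erythroid cells there were 0. No gene of these marker lists was below background on all arrays. The part of such cells in the values of Met, Erbb2 and Erbb3, which are not in these lists, was not tested.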

How the data were processed

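For each of 8 arrays the authors deposited the scanner's intensity of every spot (median Cy5 and Cy3 and median local background). Per the submitters' processing notes, the software was Agilent Feature Extraction, version 10.7.3.1. They also hold flags and, per the file headers, a log10 ratio of Cy5 over Cy3 that the scanner software corrected for background and dye. The value table deposited for the series holds log10 ratios too. It followed that ratio with r of at least 0.999999, so that its direction is Cy5 over Cy3, with medians of 0 except 0.0152 on KO 3. The deposited intensity values were corrected with normexp (offset 50), turned into log2 ratios and normalised by loess within each array in limma 3.58.1. R 4.3.3 was used with the packages data.table (1.17.8) and jsonlite (2.0.0), and matplotlib 3.10.9 drew the figures. Marked spots were left out and spots of a probe averaged. Probes needed Cy5 above background on at least 4 arrays and, in either group, 3 or more unmarked values. Names came from the RefSeq table of GRCm38.p6 (21717 of 37850 matched), and 15112 genes had a symbol. Array annotation is for mm9, so no positions are printed. The brightest probe stood for a gene.

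The groups were compared in limma (lmFit, eBayes), with 2-sided p-values adjusted by Benjamini-Hochberg over the 23341 genes, or the 31665 probes. The same fit was run on Cy3 alone after quantile normalisation. The genes, the lists and the rule for naming others (from each pathway list those past 0.05 and up to 3 with the smallest p, from each marker list up to 2) were chosen with earlier results of these data known. Tested on simulated data for KO minus WT with 23341 genes, limma recovered 77 of 100 genes changed by 1 and 93 of 100 changed by 2 on the log2 scale, with 8 false calls. Alternatives were 2 other background corrections, 5 other normalisations or sources, other filters, array weights, the mean of probes, a block for replicate number, and leaving out each array, or KO 2 and KO 3 together. The number of arrays limits the precision.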

Additional observations from a re-analysis of the deposited data

Results flagged for a closer look

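Of 53 groups of 4 arrays checked (the 10 genes and the list medians), 4 held an array whose gap to the nearest other exceeded Dixon's 95% critical share of the group's range, and chance gives about 1 in 20. Erbb3 on WT 2 read -0.0039, apart from 0.20 to 0.23 on the other WT arrays. The median of the EGF family ligands on KO 4 was 0.21, apart from 0.0017 to 0.030 on the other KO arrays. On WT 3, the self-hybridised reference, the median was -0.019 for loop of Henle and distal tubule markers, above the other WT arrays, and 0.026 for stroma and smooth muscle markers, below them.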

How the results depend on the processing

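Over 21 alternatives the 10 genes gave 208 log2 differences. Of these 185 kept direction and side of the threshold, 10 passed it and 13 changed sign. Areg and Erbb4 had no value under the filter on all 8 arrays. Set against the median of all genes in the same fit, Met ran from -0.66 to -0.45, Erbb2 from -0.40 to -0.18, Fgfr2 from -0.23 to -0.02, Spry2 from -0.50 to -0.13, Egfr from 0.17 to 0.79 and Areg from 0.16 to 1.35, each with 1 sign. Erbb3 ran from -0.58 to 0.06 (Cy5 alone) and Erbb4 from -0.35 to 0.0054. Fitted differences follow. Fgfr1 changed sign with median centring (-0.52), without WT 4 (-0.029), without KO 3 (-0.047) and without KO 2 and KO 3 (-0.031), and ran from -0.047 to 0.25 with 1 array left out. Egf changed sign with offset 0 (0.054), no background subtraction (0.0079), the scanner ratio (0.16), the series table (0.16), scaling between arrays (0.030), array weights (0.049), without WT 3 (0.090), without KO 2 (0.067) and without KO 2 and KO 3 (0.066), and ran from -0.070 to 0.090 with 1 array left out. The median of all genes moved to -0.30 with median centring and -0.17 with Cy5 alone. The pathway list medians moved beyond the spread between arrays in 29 of 168 values, most of them with these settings. The cause of these changes was not tested.

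Array weights called 3 of the 10 genes (Met, Egfr and Erbb2), leaving out 1 array called 0 to 3, and leaving out KO 2 and KO 3 called 4. Over all genes the count of 2 became 1 with offset 0, 1 with no background subtraction, 0 with median centring, 0 with Cy5 alone, 5 with scaling, 4 with no filter, 1 with the mean of probes, 4541 with array weights, 1 to 4947 (without KO 2) with 1 array left out, and 5509 without KO 2 and KO 3. Over all probes it became 1 and 1 with those background corrections, 5 with the scanner ratio, 0 with median centring, 0 with Cy5 alone, 6 with scaling, 5949 with array weights, 1 to 6692 with 1 array left out and 7436 without KO 2 and KO 3. In the reference channel, 0 became 0 to 47 with 1 array left out and 393 without KO 2 and KO 3. Counts of 0 in these limma fits had 6784 genes (median centring) and 3750 genes (Cy5 alone) at an unadjusted p under 0.05.

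Both groups number their replicates 1 to 4. The deviations of same-numbered arrays correlated at -0.24 to 0.11, above 0.1 in 1 of 4 pairs, and 1 of 8 arrays correlated best with its own number, so the numbers were not taken to pair the samples. With replicate number as a block, limma called 0 of 23341 genes (5264 at an unadjusted p under 0.05), 0 of the 10 genes (4 unadjusted) and 0 probes.

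With 4 arrays a group, the median SE over all genes was 0.12 on the log2 scale. Areg and Erbb4 lie near background, which limits their values. Erbb3 and Egf are dim as well, Egf with a Cy5 signal of 107.5 to 213, except 423.25 on KO 3.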
